A study of Mus musculus with 12 samples.

Results

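Neurotrophic factors and their receptors were followed across 5 fractions of sorted mouse back-skin epidermis. Of 7 named genes, Gdnf, Bdnf and Ntf3 encode secreted factors, and Ntrk2, Ngfr, Gfra1 and Ret encode receptors. Ntrk2 and Gdnf were chosen by their measured intensities, which had already been seen on these arrays to be lower with differentiation, so their differences between layers are described and not tested. The other 5 were added as their partners, also with earlier results of these data known, and their p-values carry that limit. On the arrays 6 of the 7 had a probe set assigned to a single gene, out of 18193 such genes, and Ntf3 was not analysed here. For each gene the probe set of highest mean log2 intensity over the 12 samples was used, and the other probe sets of the same gene are given beside it. Of the 6 genes, Ntrk2, Gdnf, Ngfr and Ret lay above the array background in at least 6 samples, and Bdnf and Gfra1 did not.

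Neurotrophins act through 2 kinds of receptor. Trk receptors are tyrosine kinases, each with preferred ligands (Ntrk2, or TrkB, binds BDNF and neurotrophin 4), and p75NTR, the product of Ngfr, binds all neurotrophins and the uncleaved pro-forms. GDNF is a distant TGF-beta relative that binds the GPI-anchored co-receptor GFRα1, and the pair then activates the kinase Ret. In skin these ligands are best known for supplying sensory nerve endings and their glia, and receptors for them have also been described on keratinocytes, melanocytes and hair follicle cells.

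All 12 samples came from mice with 4 transgenes, namely the drivers K5-tTA and K14-CreER and the reporters pTRE-H2B-GFP and Rosa-tdTomato. In this system a keratin 5 promoter drives the tetracycline transactivator, so that the histone-GFP label is made in keratin 5 lineage cells and is switched off by doxycycline. The mice ate doxycycline food at 1 g/kg for 2 weeks, received tamoxifen once at 75 mg/kg, and were killed 1 week later in second telogen. No age in days, sort gate or pooling of animals is stated in the labels. BL and SL were each split by label, with 3 LRC and 3 non-LRC samples of BL and 2 of each kind of SL, and GL had 2 samples. The labels give only these abbreviations. From knowledge of the study, BL, SL and GL stand for basal, spinous and granular layer, and LRC for label-retaining cell, a cell that has kept GFP because it divided rarely. Every group, the non-LRC included, therefore carries the same alleles and received the same drugs.

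Arrays were scaled to a trimmed mean of 500 and were close in range, with 68.1% to 78.4% of genes above an array's background floor of 22.4 to 42.6 intensity units. That floor is the 95th percentile of 27 bacterial control probe sets. By sum the 7 granular markers followed the layer names, at 2485 to 8133 in BL, 14199 to 38175 in SL and 40924 to 56641 in GL. Flg was never above the floor in BL and read 517 and 271 in GL, while Ivl read 1110 in SL non-LRC 1 and 830 in GL 2. The 6 spinous markers did not separate SL from BL, summing to 143935 to 153827 in SL LRC but 85389 to 100656 in SL non-LRC. Their sum was 99988 to 121540 in BL LRC, 66858 to 91668 in BL non-LRC and 112270 to 114836 in GL. GL was not purely of granular type by its markers: the 8 basal markers were above the floor in all GL samples, and the summed signal of 10 hair follicle markers was 54053 to 54579 in GL against 5149 to 8135 in BL LRC, with non-LRC above LRC in both lower layers (36486 to 40706 against 12458 to 14169 in SL, and 14082 to 18617 in BL non-LRC). The 6 BioB hybridisation control probe sets split the arrays into 4 of low mean signal (467 to 524), namely BL LRC 1, BL non-LRC 1 and both SL non-LRC samples, and 8 of high signal (2885 to 3931). Within SL the array set and the label group therefore cannot be told apart. Transcripts of the Y chromosome (Uty, Kdm5d and Eif2s3y) were all 3 above the floor in 10 samples and 0 of 3 in BL LRC 1 and BL non-LRC 1, so the samples were not all from animals of 1 sex. In BL the array set and this split therefore coincide. Nothing in the labels says which samples are separate animals, so a p-value here covers the spread among these 12 arrays, part of which may be technical. All of these are bulk values, in which fewer cells of a type and less RNA per cell cannot be told apart.

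Gdnf, the ligand of the GFRα1 and Ret complex, had a clear signal in BL and SL and none above background in GL. Its single probe set read 339, 399 and 344 intensity units in BL LRC. BL non-LRC gave 265, 227 and 107. SL LRC read 182 and 208, SL non-LRC 156 and 58.2, and GL 6.92 and 5.11. Every BL and SL sample was above its floor, and neither GL sample was. As mean log2 intensity the order was BL LRC at 8.49 ± 0.13 (SD, n = 3), SL LRC at 7.60 ± 0.13 (n = 2), BL non-LRC at 7.54 ± 0.70 (n = 3), SL non-LRC at 6.57 ± 1.00 (n = 2) and GL at 2.57 ± 0.31 (n = 2). Samples of BL LRC did not overlap with SL LRC, whereas SL LRC overlapped with BL non-LRC and BL non-LRC with SL non-LRC. The share of all genes without overlap between neighbouring groups in this order was not computed.

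Bdnf, the preferred ligand of TrkB together with neurotrophin 4, was near background throughout. Its used probe set was above the floor in 5 of 12 samples, with values from 4.91 to 53.1, and the only group with both samples above it was SL LRC, at 53.1 and 36.3. A second Bdnf probe set was above the floor in 1 sample, at 25.8 in GL 2. In the order of means each group overlapped with the next on the used probe set, so no order of groups is given.

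Ntrk2, the gene of the TrkB receptor, was well above background in BL and SL and lower in each further layer. It read 2466, 1370 and 791 in BL LRC, and 4408, 1918 and 4447 in BL non-LRC. It read 309 and 272 in SL LRC, 631 and 436 in SL non-LRC, and 36.7 and 166 in GL. All 12 samples were above the floor, and every BL sample was above every SL sample, which were in turn above both GL samples. Mean log2 intensity was 11.71 ± 0.70 (SD, n = 3) in BL non-LRC, 10.44 ± 0.82 (n = 3) in BL LRC, 9.04 ± 0.38 (n = 2) in SL non-LRC, 8.18 ± 0.13 (n = 2) in SL LRC and 6.29 ± 1.54 (n = 2) in GL. In this order BL non-LRC and BL LRC overlapped and no other neighbouring groups did. With 2 samples a side, 47.5% of all genes did not overlap between the SL label groups. All SL samples lay under all BL samples for 2% of all genes. The share with GL under SL was not computed. The array carries 8 single-gene probe sets for Ntrk2, of which 3 were above the floor in at least 6 samples, and those 3 were above it in all 12. The other 5 were above the floor in 3 to 5 samples, with a highest value of 90.2. Ntrk2 makes full-length and kinase-lacking receptor forms, and the annotation used here does not say which form each probe set reads.

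Ngfr, which encodes p75NTR, gave low but mostly detectable values. The used probe set read 142, 313 and 379 in BL LRC, and 136, 175 and 80.6 in BL non-LRC. It read 128 and 103 in SL LRC, 32.8 and 88.1 in SL non-LRC, and 91.5 and 44.8 in GL. All 12 values were above the floor, and the BL groups overlapped with each other. On a second probe set BL LRC read 269, 393 and 347, and BL non-LRC 170, 129 and 104. SL LRC read 101 and 37.9 on it, SL non-LRC 184 and 5.94, and GL 9.98 and 33.5. On both of these probe sets BL LRC held the highest mean, and the remaining one, above the floor in 7 samples, had its highest value of 123 in SL non-LRC 1.

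Gfra1, the GDNF co-receptor, was above the floor in 5 of 12 samples on its used probe set. The highest value was 178 in BL non-LRC 1, while the other BL non-LRC samples read 16.8 and 18.2. Both SL non-LRC samples were above the floor, at 120 and 60.4, and both SL LRC samples were under it, at 26.8 or less. On a second Gfra1 probe set the groups overlapped, with 43.8 and 20.7 in SL non-LRC against 7.75 and 33.5 in SL LRC and a mean log2 difference of the same sign, -0.90 ± 1.31. On the dimmest all 4 SL samples were under the floor, at 17.7 and 3.11 in SL non-LRC and 7.87 and 12.1 in SL LRC. In BL this probe set read 209, 96.3 and 22.7 in non-LRC, and 24.8, 5.12 and 13.2 in LRC, where no sample was above the floor. For all 3 probe sets BL non-LRC 1 was the highest of the 12 samples.

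Ret, the signalling kinase of the GDNF receptor, was highest in GL. BL LRC read 41.6, 6.80 and 69.6, and BL non-LRC 71.6, 18.3 and 47.4. SL LRC read 71.6 and 100.02, and SL non-LRC 77.1 and 61.9. In GL it read 572 and 693, above each of the other 10 samples. A second Ret probe set separated the groups in the same way, with 290 and 285 in GL and no BL or SL sample above the floor, where the values ran from 1.35 to 28.1. GL, in which Ret had its highest mean (9.30 ± 0.20 log2 units, SD, n = 2), was thus the group in which Gdnf was not above background. Among the BL and SL groups each overlapped with the next in the order of Ret means.

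**Figure D1:**
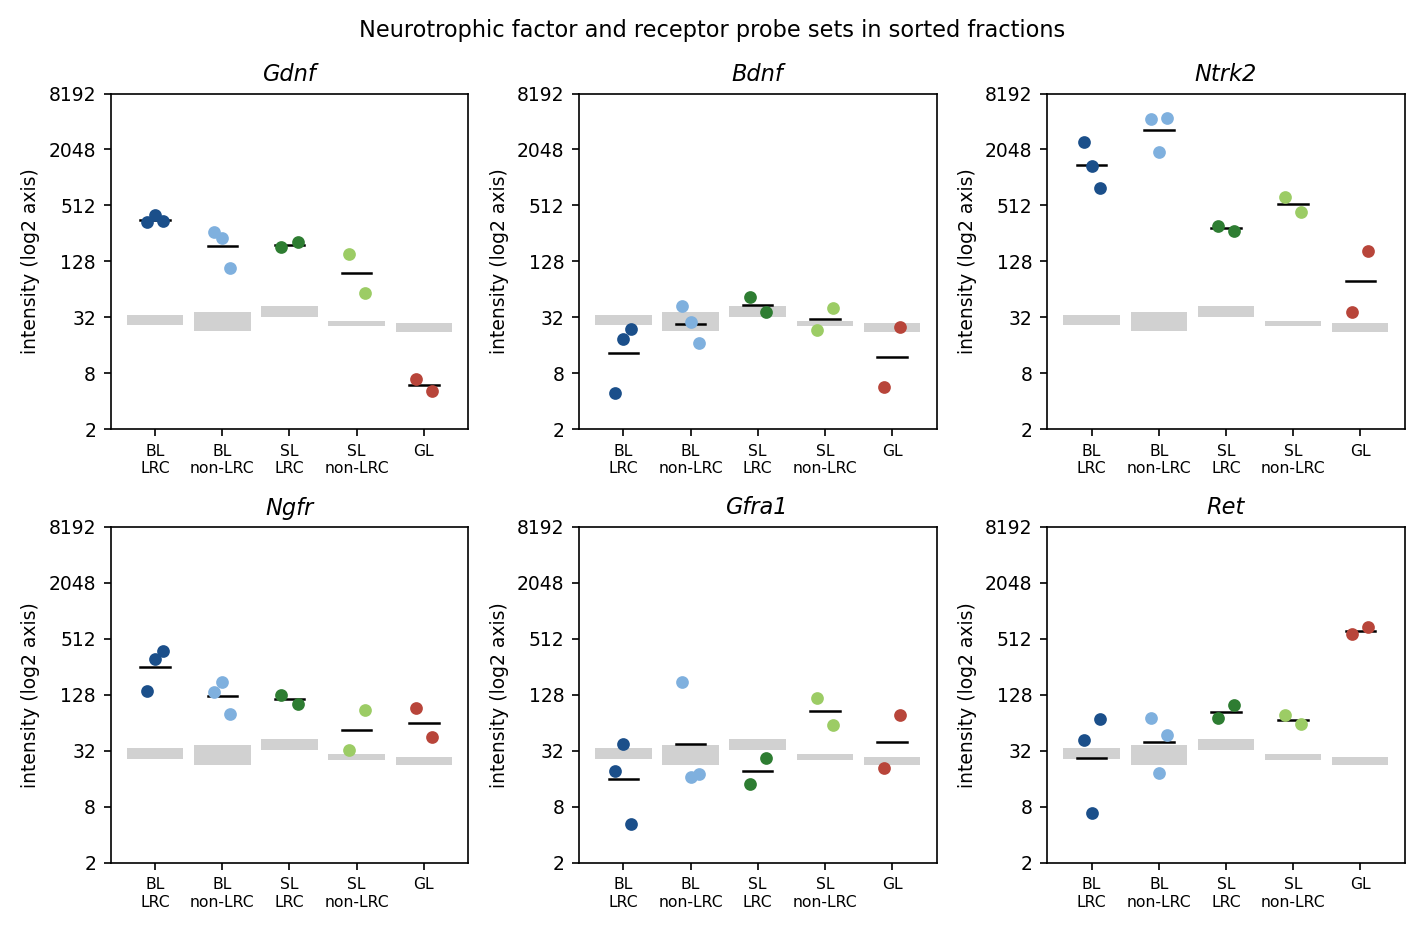
Intensity of the used probe set of each member (vertical axis, log2 spaced) in the 5 sorted groups, 1 point per sample, with the group mean of log2 values as a black line and the range of the groups' array background floors in grey. Gdnf is under the floor in both GL samples, Ntrk2 steps down from BL to SL to GL, Ret reads 572 and 693 in GL, and Bdnf and Gfra1 scatter around the floor.

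The promoters of Gdnf and Ntrk2 are shown because these genes carry the lower values with differentiation, and that of Ngfr because it, like Gdnf, had its highest mean in BL LRC. Sequences are RefSeq's on GRCm38.p6, from 250 bases before to 50 bases after an annotated start, read 5′ to 3′ on the gene's strand. Capitals mark each match to TATAAA or to GGGCGG (the GC box) on either strand, where a match on the opposite strand reads CCGCCC.
Gdnf (chr15:7809798-7810097, plus strand): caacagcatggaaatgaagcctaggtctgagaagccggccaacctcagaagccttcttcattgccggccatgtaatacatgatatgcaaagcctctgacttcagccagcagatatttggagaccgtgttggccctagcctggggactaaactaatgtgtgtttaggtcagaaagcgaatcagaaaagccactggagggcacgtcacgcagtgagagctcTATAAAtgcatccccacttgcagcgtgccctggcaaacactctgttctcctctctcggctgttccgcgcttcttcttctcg
Ntrk2 (chr13:58806319-58806618, plus strand): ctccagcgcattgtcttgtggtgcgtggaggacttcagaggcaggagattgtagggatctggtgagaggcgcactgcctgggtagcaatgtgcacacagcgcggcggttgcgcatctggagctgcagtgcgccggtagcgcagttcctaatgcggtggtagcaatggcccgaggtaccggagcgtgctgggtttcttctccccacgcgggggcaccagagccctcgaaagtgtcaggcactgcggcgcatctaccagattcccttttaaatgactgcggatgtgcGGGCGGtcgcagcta
Ngfr (chr11:95587649-95587948, minus strand): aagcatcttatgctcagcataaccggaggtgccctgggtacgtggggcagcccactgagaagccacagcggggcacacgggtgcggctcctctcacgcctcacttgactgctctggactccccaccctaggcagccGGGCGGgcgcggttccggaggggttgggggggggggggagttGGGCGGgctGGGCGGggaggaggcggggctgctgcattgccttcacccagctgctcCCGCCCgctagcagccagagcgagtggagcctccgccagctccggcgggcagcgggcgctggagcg
The Gdnf window, the first of 2 starts in the table, had a GC content of 51.7% and 11 CpG dinucleotides, and held TATAAA at position -31 with the first transcribed base counted as 1. The Ntrk2 window had a GC content of 61.3% and 23 CpG, with GGGCGG at position 36. The Ngfr window had a GC content of 71.7% and 23 CpG, with GGGCGG at positions -114, -72 and -63 and an opposite-strand match at -16. Of 32851 mouse promoter windows of this length, 35.7% held GGGCGG and 13.6% held TATAAA, the median GC content was 52.7% and the median CpG number 7. The AP-1 motif TGANTCA, present in 7.81% of windows, had no match in these 3, and the E-box CANNTG, present in 72.3%, had 1 match each in Gdnf and Ntrk2 and 2 in Ngfr. The table holds 7 promoters for Bdnf, 1 for Gfra1 and 2 for Ntf3. These matches are descriptions of the letters.

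The first comparison asked whether label-retaining and non-label-retaining cells of one layer differ. In BL, Ntrk2 was lower in LRC by a log2 difference of -1.27 ± 0.48 (SE), with a 95% interval from -2.29 to -0.25, while Gdnf was higher by 0.95 ± 0.49 (interval -0.096 to 2.00) and Ngfr by 1.04 ± 0.54. None of these 3 passed the limma test after Benjamini-Hochberg adjustment over all genes, with adjusted p = 0.291 for Ntrk2, 0.509 for Gdnf and 0.507 for Ngfr. For all 6 tested members the count of calls was 0, against 1.53% of all genes called in this comparison. An unadjusted p under 0.05 was reached by 1 member (Ntrk2), and by 11.1% of all genes. For Gdnf the 3 LRC samples all lay above the 3 non-LRC samples, which held for 16.4% of all genes in either direction. The other detected Ntrk2 probe sets gave smaller differences of -0.76 ± 0.41 and -0.39 ± 0.26, and the second Ngfr probe set gave 1.33 ± 0.90 with no overlap between the groups. The third Ngfr probe set ran the other way, at -0.87 ± 0.86, with 1 of 3 LRC samples above the floor. Markers of sebaceous cells also differed between these groups, their summed signal being 17341 to 47505 in BL non-LRC against 7217 to 10170 in BL LRC, and their part in the Ntrk2 and Gdnf values was not tested. Within the low array set, with 1 sample a side, Ntrk2 differed by -0.84, Gdnf by 0.35 and Ngfr by 0.056. Within the high set, with 2 samples a side and Y-linked signal in all 4, these were -1.49, 1.25 and 1.54. The sign was the same in both sets for all 3 genes, with the smaller differences in the low set.

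In SL the same 3 genes had differences of the same sign on their used probe sets. Ntrk2 was lower in LRC by -0.86 ± 0.59 on the log2 scale, Gdnf higher by 1.03 ± 0.61 and Ngfr higher by 1.10 ± 0.66. These sizes were unsteady: a second Ntrk2 probe set gave -0.04, the third Ngfr probe set turned to -0.83, and leaving out SL non-LRC 1 or SL non-LRC 2 moved Gdnf to 1.74 or 0.32 and Ngfr to 0.39 or 1.81. The number of members called was again 0 of 6, against 4.19% of all genes called, and 0 had an unadjusted p under 0.05, against 16.9% of all genes. Adjusted p was 0.527, 0.432 and 0.445. Samples did not overlap between the label groups for 4 of the 6 members (Ntrk2, Gdnf, Ngfr and Gfra1), and 47.5% of all genes did not overlap in this comparison of 2 with 2 samples. Gfra1 was at least 2.28-fold lower in SL LRC, where it was under the floor (adjusted p = 0.409). Sebaceous markers summed to 11961 to 16392 in SL LRC and 21465 to 36011 in SL non-LRC, and follicle markers also differed as given above. Their part in these values was not tested. With the array set as a block, the Ntrk2 difference turned to 0.062 (adjusted p = 0.988). Only BL has both array sets within a group, so the block is estimated from BL alone, where it coincides with the split by Y-linked signal. All SL samples had that signal, so this fit cannot separate array set from label in SL. The test of whether the label effect differs between SL and BL called 0 of 6 members and 0% of all genes in limma, with 1291 genes at an unadjusted p under 0.05 and 2 to 5 genes called in 4 other settings of the model. For Ntrk2 that difference of differences was 0.41 ± 0.76 (interval -1.20 to 2.03) and for Gdnf 0.081 ± 0.78 (interval -1.57 to 1.73), so effects of a log2 unit in either direction lie inside both intervals.

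The second comparison followed the members from BL to SL. Ntrk2 was lower in SL by a log2 difference of -2.47 ± 0.38 (SE), or 5.53-fold, and all 4 SL samples lay under all 6 BL samples, as for 2% of all genes. The difference was -2.26 within LRC and -2.67 within non-LRC, and -2.65 within the low and -2.59 within the high array set. On the other 2 detected Ntrk2 probe sets it was smaller, at -1.29 ± 0.32 and -0.73 ± 0.20, so that the size of the difference depended on the probe set by more than a log2 unit. Gdnf was lower in SL by -0.93 ± 0.39, and by -0.89 within LRC and -0.97 within non-LRC. Without SL non-LRC 1 or SL non-LRC 2 the difference was -1.28 or -0.57, and within non-LRC -1.68 or -0.26. It was -1.66 in the low array set and -0.31 in the high set, a spread larger than for Ntrk2. For both genes the low set compares SL non-LRC with the BL samples that lack Y-linked signal. The high set compares SL LRC with BL samples that have it. These differences within a set therefore mix layer with label, and in the low set also with sex. With label matched, SL LRC minus BL LRC in the high set (2 samples a side) was -1.85 for Ntrk2 and -0.931 for Gdnf. In the low set SL non-LRC minus BL non-LRC, with 2 samples against 1, was -3.07 and -1.48. There the layer still cannot be told apart from sex. Without the BL samples of the low set the SL and BL difference was -2.16 for Ntrk2 and -0.82 for Gdnf. These values describe what the genes were chosen for and carry no test.

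Of the 4 members that could be tested between SL and BL, 0 were called, against 5.03% of all genes, and 1 (Ngfr) had an unadjusted p under 0.05, against 15.8% of all genes. Ngfr was lower in SL by -1.18 ± 0.43 (adjusted p = 0.148, limma) and Ret higher by 1.23 ± 0.60 (adjusted p = 0.333). The 3 Ngfr probe sets disagreed, with -2.21 ± 0.71 on the second and 0.50 ± 0.68 on the third. Within LRC alone, 0 of 4 members were called against 2.81% of all genes, and within non-LRC alone 0 of 4 against 1.56%. In these the Ngfr differences were -1.15 ± 0.60 and -1.21 ± 0.60, and on the third probe set 0.53 ± 0.97 and 0.48 ± 0.97. Bdnf and Gfra1 were too close to background for a fold between SL and BL.

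**Figure D2:**
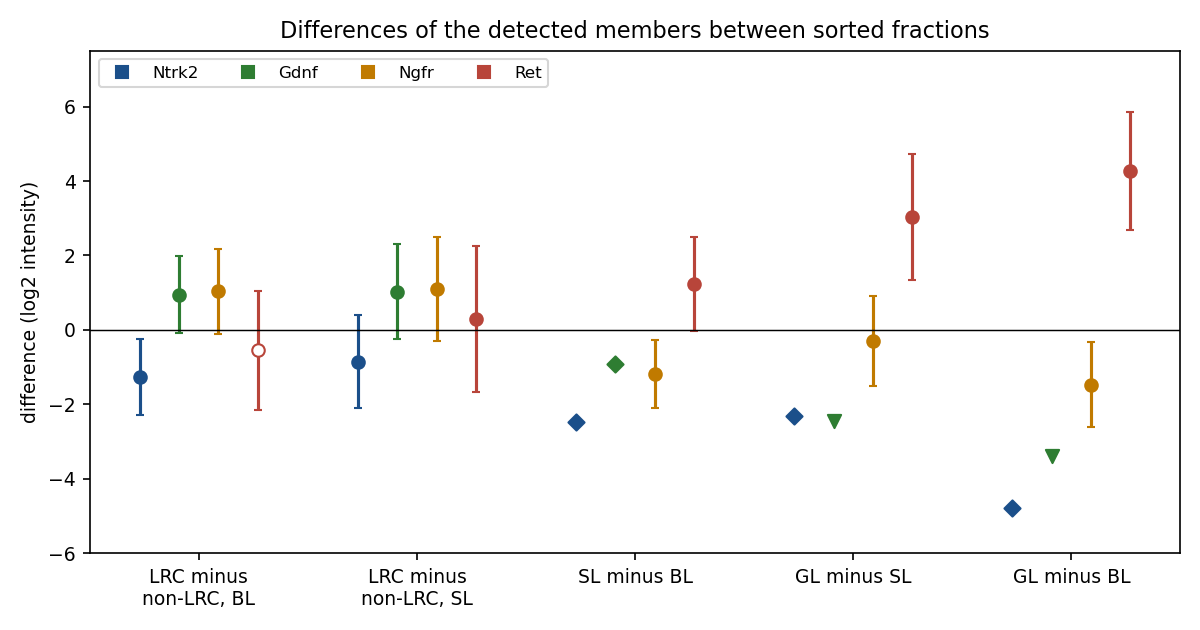
Difference in log2 intensity (vertical axis) of the 4 detected members in 5 comparisons. Circles with bars are limma estimates with 95% intervals, the hollow circle is a difference whose size is open because a side was partly under background, diamonds are described differences of Ntrk2 and Gdnf without a test, and triangles are the lower bounds on how far Gdnf lies below SL and BL in GL. Ret in GL is the value whose interval is farthest above 0, at 4.27 against BL.

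The third comparison set GL against the layers below. Ntrk2 was lower in GL than in SL by a log2 difference of -2.32 ± 0.51 and lower than in BL by -4.79 ± 0.48, or 27.6-fold. Both sizes rest on which GL sample is used, since without GL 1 they were -1.23 and -3.70, and without GL 2 -3.41 and -5.88. On the 2 other detected Ntrk2 probe sets the difference from SL was -2.35 ± 0.43 and -1.27 ± 0.27. From BL it was -3.64 ± 0.41 and -1.99 ± 0.26 on the same probe sets. Gdnf was at least 5.46-fold lower in GL than in SL and at least 10.4-fold lower than in BL, bounds set by the GL background floor. Against the high-set SL LRC samples alone, Ntrk2 in GL differed by -1.89, and against the high-set BL samples by -4.48.

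Ret rose in GL. Its log2 difference was 3.04 ± 0.80 from SL (interval 1.35 to 4.74, adjusted p = 0.0261, limma) and 4.27 ± 0.76 from BL (interval 2.67 to 5.87, adjusted p = 0.000667). It was the only call among the 4 members tested, 1 of 4 in each comparison. These members were chosen with earlier results of these data known. Of all genes 8.3% were called between GL and SL, 4.39% higher in GL, and 17.1% between GL and BL, 8.66% higher in GL. Both GL samples exceeded all others. GL lay above all SL samples for 13% of all genes and above all BL samples for 13.6%, and the share above both was not computed. The second Ret probe set was at least 8.99-fold higher in GL than in SL (adjusted p = 0.00856) and at least 9.99-fold higher than in BL (adjusted p = 0.00396). The call against BL held without any 1 sample, with adjusted p from 0.000269 to 0.0198. The call against SL was lost without SL LRC 1 (adjusted p = 0.0707), SL non-LRC 1 (0.0520), SL non-LRC 2 (0.0634), GL 1 (0.153) or GL 2 (0.168), and without the mean-variance trend (0.0991), while the difference stayed between 2.80 and 3.60. Within the high array set Ret was higher in GL by 2.90 than in SL LRC and by 4.64 than in BL.

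Summed markers of several other cell types were also higher in GL, where Ret was. The 6 Langerhans and myeloid markers summed to 22401 to 46399 in GL and to 890 to 6724 in the other groups, with Csf1r at 5081 and 1941 and Cd207 at 995 and 403. The 8 melanocyte markers summed to 2148 to 3024 in GL against 527 to 1308 elsewhere, with 7 of 8 above the floor in both GL samples. For 6 Schwann cell markers the sums were 2607 to 3646 against 885 to 1586. S100b read 677 and 620 in GL and at most 77.7 elsewhere, and Pmp22 read 1529 and 2392 against at most 1178. Mbp, Cdh19, Foxd3 and the defining Sox10 overlapped with the other groups. Mbp read 322 and 311 in GL and 184 to 684 elsewhere, and Sox10 read 26.8 and 199 against at most 172. The 8 neuron markers summed to 292 to 312 in GL, inside the range of 171 to 489 in the other groups, with Nefl, Nefm and Snap25 never above the floor in GL. T cell markers summed to 7068 to 21751 in GL and 2099 to 7769 elsewhere, and fibroblast markers to 1173 to 1414 and 166 to 869. Of the fibroblast markers, Dcn (616 and 435 in GL, at most 423 elsewhere) and Mgp (538 and 469, at most 348) were higher in GL. The other fibroblast markers, Col1a1 and Lum among them, overlapped with the other groups. The part of these cell types in the Ret values was not tested, nor was it for the other genes given below as higher in GL, Mmp9 and Sh2b2 among them.

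Ngfr in GL differed from SL by -0.30 ± 0.57 (adjusted p = 0.839) and from BL by -1.48 ± 0.54 (interval -2.62 to -0.34, adjusted p = 0.0731). It was just outside the threshold against BL, and was called with quantile normalisation (adjusted p = 0.0336), without BL LRC 1 (0.0410) or without BL non-LRC 3 (0.0483). On its second probe set the difference from BL was -3.52 ± 0.90 (adjusted p = 0.0124), with the exact size open because GL was partly under the floor. Against SL the second probe set gave -1.31 ± 0.96, also of open size, and the third -2.20 ± 0.92 (adjusted p = 0.187), which is at least 2.01-fold lower with GL under the floor. On the used probe set the direction against SL turned to 0.061 without SL non-LRC 2 and to 0.22 without GL 2. Bdnf and Gfra1 gave no measurable fold between GL and BL.

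**Figure D3:**
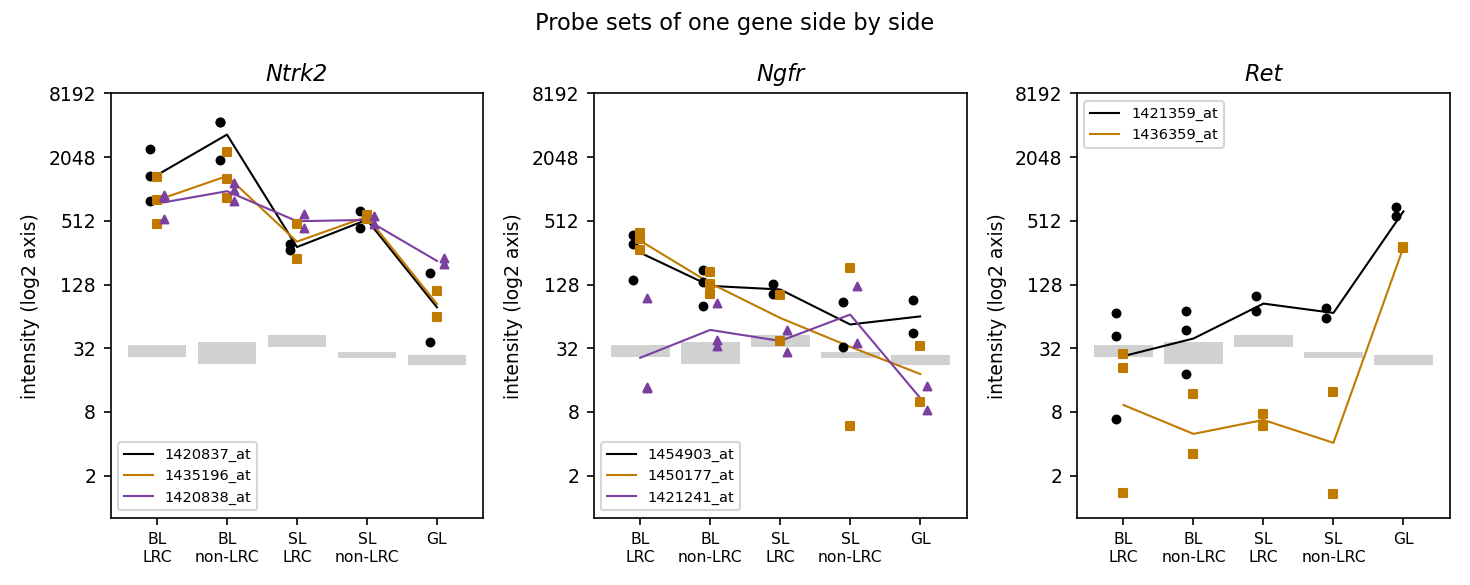
Intensity (vertical axis, log2 spaced) of the detected probe sets of Ntrk2, the 3 probe sets of Ngfr and the 2 of Ret in the 5 groups, with points for samples, lines through group means of log2 values, and the array background floors in grey. The Ntrk2 probe sets share the BL to GL direction with different steepness, the Ngfr probe sets cross in SL, and both Ret probe sets are highest in GL.

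The other genes of these pathways were taken from lists of ligands, receptors, processing enzymes, adaptors and responsive genes. These lists were written with earlier results of these data known, so the shares of calls below describe the lists and do not test them. Of 9 other neurotrophin genes and receptors 7 were measured. Against BL, 1 was higher and 1 lower in SL (28.6% of the measured, beside 5.03% of all genes), and 2 were higher and 2 lower in GL (57.1%, beside 17.1%). The list's median log2 difference between GL and BL was -1.07, beside -0.023 over all genes, and it turned to 0.17 over the 5 genes with a measurable difference, beside -0.044 over the 12890 such genes in all. Sort1 encodes sortilin, the p75NTR co-receptor for pro-neurotrophins, and was higher than BL (708 to 1638) in both SL (2921 to 4603) and GL (5695 to 7082). Its log2 difference was 1.91 ± 0.19 between SL and BL (adjusted p = 1.17e-05) and 2.71 ± 0.24 between GL and BL (adjusted p = 5.4e-07). Sorcs2, another sortilin-family receptor, rose in GL by 3.30 ± 0.38 over BL (adjusted p = 8.69e-06) and by 2.66 ± 0.40 over SL (adjusted p = 0.000443). Sorl1, also of this family, fell by 1.11 ± 0.23 in SL (adjusted p = 0.00729) and by 1.78 ± 0.29 in GL against BL. The Sorl1 call in SL was lost without SL LRC 2, and without the mean-variance trend (adjusted p = 0.0899). Ntf5, the gene of neurotrophin 4 and so a TrkB ligand, fell by 1.07 ± 0.32 between BL and GL (adjusted p = 0.028). That call was lost without BL LRC 1, BL non-LRC 3 or GL 1 (adjusted p up to 0.293), and with the array set as a block or without the low-set BL samples (up to 0.0823).

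Of 11 other GDNF family genes and co-receptors 9 were measured. In GL 2 rose and 0 fell against BL (22.2%, beside 17.1% of all genes). The list median was -0.32 beside -0.023 over all genes, and it turned to 0.56 over the 5 genes with a measurable difference. Gas1, a GFRα-related membrane protein that can bind Ret, rose by 1.22 ± 0.21 over BL (adjusted p = 0.000443), with 8849 and 10510 in GL and 3005 to 5684 in BL. Sdc3, a heparan sulphate proteoglycan that binds GDNF, rose by 2.23 ± 0.65 (adjusted p = 0.0247), a call lost without GL 1 or GL 2 (adjusted p up to 0.176) and without the mean-variance trend.

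Of 15 other neurotrophic cytokine and factor genes 12 were measured, and in GL 1 rose and 5 fell against BL (50% of the measured, beside 17.1% of all genes), with a list median of -0.48. Il6st, the gp130 subunit shared by CNTF, LIF and cardiotrophin receptors, fell by 1.83 ± 0.19 (adjusted p = 3.04e-06), from 3869 to 7010 in BL to 1230 and 1521 in GL. Ptn, the growth factor pleiotrophin, fell by 2.17 ± 0.32 (adjusted p = 0.000105), and Ptprz1, its receptor phosphatase, was at least 6.08-fold lower (adjusted p = 0.000399). Ctf1, cardiotrophin 1, fell by 1.60 ± 0.29 (adjusted p = 0.000862). Ptn was also the list's only call between label groups, falling by 2.38 ± 0.39 in SL LRC (adjusted p = 0.00181), where 4.19% of all genes were called. That call was lost with the array set as a block or without the trend (adjusted p up to 0.0748).

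Of 12 genes for processing and capture of pro-neurotrophins 11 were measured, and in GL 2 rose and 0 fell against BL (18.2%, beside 17.1% of all genes). Plat, the tissue plasminogen activator that starts the plasmin cascade which cleaves pro-BDNF, rose in GL by 1.68 ± 0.24 over BL (adjusted p = 8.93e-05). It also rose in BL LRC by 1.11 ± 0.24 over BL non-LRC (adjusted p = 0.0245), the list's only call there beside 1.53% of all genes, but this was lost in 5 of 6 fits that left out a sample (adjusted p up to 0.13). Mmp9, a protease that can also cleave pro-neurotrophins, rose in GL by 4.68 ± 0.83 over BL (adjusted p = 0.000694), with 2261 and 377 in GL and at most 69.3 in BL. Without GL 1 its adjusted p was 0.0635. In SL LRC, Plau (urokinase) rose by 1.10 ± 0.26 (adjusted p = 0.0234) and Furin, a pro-protein convertase, fell by 0.96 ± 0.26 (adjusted p = 0.0428), beside 4.19% of all genes called. Leaving out single samples ended these calls in 3 and in 4 of 4 fits. The Furin call was also lost with the array set as a block, with quantile normalisation or without the trend (adjusted p up to 0.339). That of Plau was lost with arrays centred on their median or without the trend (up to 0.184).

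Of 28 adaptors and signalling partners of Trk, p75NTR and Ret 24 were measured, with 3 higher and 1 lower in SL than in BL (16.7% of the measured, beside 5.03% of all genes). In GL 4 were higher and 0 lower than in BL, and this 16.7% is no more than the 17.1% of all genes called. Gab2, a docking protein for receptor tyrosine kinases, rose by 2.55 ± 0.32 in SL (adjusted p = 0.00014), from 78.6 to 391 in BL to 771 to 1191 in SL. Plcg1, the phospholipase recruited by activated Trk receptors, rose by 0.54 ± 0.11 (adjusted p = 0.00817), and Kidins220, a scaffold of Trk signalling, by 0.56 ± 0.12 (adjusted p = 0.0094). Bex3, a p75NTR-associated protein, fell by 0.54 ± 0.15 (adjusted p = 0.045). Leaving out SL non-LRC 1 ended the calls of Plcg1, Kidins220 and Bex3, and leaving out SL LRC 2 that of Kidins220. Bex3 was lost in 8 of 10 such fits. It was also lost in 6 of 9 other settings (adjusted p up to 0.191), the array set as a block among them. Without the mean-variance trend Plcg1 (adjusted p = 0.0842) and Kidins220 (0.0794) were lost too. In GL the calls against BL were Gab2 at 2.87 ± 0.41, Kidins220 at 0.87 ± 0.15, Plcg1 at 0.65 ± 0.14 and Sh2b2, a Trk adaptor, at 2.48 ± 0.71, the last 2 lost without GL 1.

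**Figure D4:**
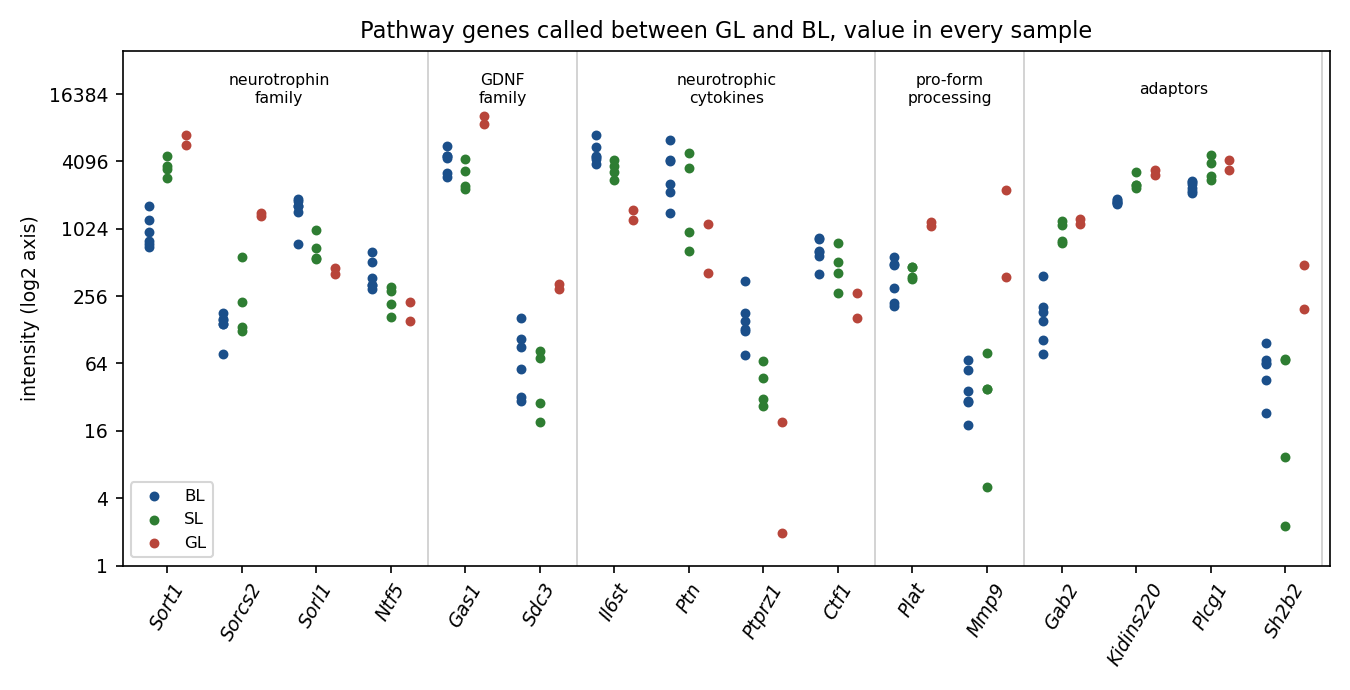
Intensity (vertical axis, log2 spaced) of the up to 4 genes of smallest p per pathway list called between GL and BL, 1 point per sample, for BL (6 samples), SL (4) and GL (2). Sort1 values lie in the order BL, SL, GL without overlap, Il6st and Ptprz1 are lowest in GL, and Gab2 is already higher in SL.

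Of 18 genes known to respond to neurotrophin or Ret signalling in neurons or kidney 17 were measured, and these also respond to many other signals. Against non-LRC, 0 were higher and 2 lower in BL LRC, and 0 higher and 2 lower in SL LRC, which is 11.8% of the measured genes in each layer, beside 1.53% and 4.19% of all genes. The list medians were -0.51 and -0.48 beside 0.046 and -0.0013 over all genes. Egr2, a zinc finger transcription factor of the immediate early class, fell by 3.22 ± 0.25 in BL LRC (adjusted p = 2.66e-06), reading 325 to 716 in LRC and 4449 to 6033 in non-LRC, and by 2.31 ± 0.30 in SL LRC (adjusted p = 0.000398). Both Egr2 calls held without any 1 sample and in the other 9 settings. Egr3, its close relative, fell by 1.84 ± 0.43 in BL LRC (adjusted p = 0.0398). That call was lost without BL LRC 1, BL LRC 2 or BL non-LRC 3, and in 4 of 9 other settings (adjusted p up to 0.302). Cxcr4, a chemokine receptor gene, fell by 2.47 ± 0.44 in SL LRC (adjusted p = 0.00386). That call was lost without SL LRC 2, and without the mean-variance trend (adjusted p = 0.0627). Between SL and BL 3 were higher and 2 lower (29.4%, beside 5.03% of all genes), among them Egr2 at 1.71 ± 0.20, Egr1 at 1.05 ± 0.15, Spred2 (an inhibitor of the Ras and ERK pathway) at -1.22 ± 0.18 and Etv5 (a Ret-responsive ETS factor in kidney) at -1.23 ± 0.23. Between GL and BL 7 were higher and 3 lower (58.8%, beside 17.1% of all genes), with a list median of 1.00. The list therefore had members called in both directions between the layers.

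For Ntrk2 and Gdnf the 5 genes of most similar pattern were taken by Pearson correlation of log2 intensity over the 12 samples, among 13613 genes above the floor in at least 6 samples. These are descriptions over arrays that share the layer groups, and values are given without a test. For Ntrk2 they were Paics (r = 0.949), Rad18 (0.946), Pam (0.938), Cdk6 (0.936) and Pkmyt1 (0.930). Paics is a purine synthesis enzyme, Rad18 a ubiquitin ligase of DNA damage tolerance, Pam a peptide-amidating enzyme, Cdk6 a kinase of G1 phase and Pkmyt1 an inhibitory kinase of CDK1. Without BL non-LRC 3 and GL 1, the samples farthest from the Ntrk2 median, r ranged from 0.854 to 0.935. For Gdnf they were Il33 (r = 0.985), Tns4 (0.982), Syne1 (0.980), Sema3c (0.978) and Wnt4 (0.976). Il33 is an alarmin cytokine held in the nucleus, Tns4 a tensin, Syne1 a nuclear envelope protein, Sema3c a secreted semaphorin and Wnt4 a Wnt ligand. Il33 read 1012 to 3916 in BL, 448 to 1418 in SL and 73.3 and 50.8 in GL. Without both GL samples r for these 5 ranged from 0.833 to 0.926. Among the members themselves, Ntrk2 and Gdnf correlated at r = 0.716 and Gdnf and Ret at r = -0.836 over the same 12 samples. Both values include the GL samples, in which Gdnf was under the floor, and r without them was not computed. Ntrk2 and Gdnf were also both chosen for lower values with differentiation.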

How the data were processed

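The authors deposited linear intensity values of 12 arrays, with a 2% trimmed mean of 500 on each as recomputed here, a floor of 1 and a maximum of 71928.59. The design had assumed log2 values, so log2 was taken with nothing added. Per the labels' protocols, 5 ng of RNA was amplified and biotin-labelled after extraction of sorted cells. The software that summarised the probes is not given in the sources used here. All members and gene lists were chosen with earlier results of these data known. Of 45101 probe sets, 34945 map to 1 gene by the platform annotation, and the one with the highest mean per gene gave 18193 genes. A single limma 3.58.1 model (R 4.3.3) of 5 group means, with a mean-variance trend, was adjusted by Benjamini-Hochberg over all genes at 0.05, and was tested on simulated data. The error after ± is limma's moderated SE unless SD is written. A difference is given as "at least" where a side was never above the background floor, as open where only some samples were and their mean was not, and not given where neither side had a measurable level. "Higher in" without a stated test is a description. Genes named were the members, up to 4 called per list and comparison by smallest p, and the 5 most similar to Ntrk2 and to Gdnf. Alternatives were other scaling, log2(value + 16), a filter on dim genes, other probe sets, array set and replicate number as blocks, fewer samples and no trend. The number of arrays limits the precision. Figures used Python 3.11.15, pandas 2.3.3 and matplotlib 3.10.9.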

Additional observations from a re-analysis of the deposited data

How the results depend on the processing

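Centring arrays on their median moved the median of all genes from 0.046 to -0.19 for the BL label comparison, from -0.0013 to -0.14 for the SL label comparison and from -0.028 to -0.17 for GL minus SL. It changed the split of higher and lower calls from 56 and 223 to 22 and 424, from 271 and 492 to 126 and 566, and from 799 and 711 to 595 and 892. Between SL and BL that split moved from 515 and 400 to 551 and 237, within LRC from 256 and 256 to 273 and 133. Calls over all genes moved as follows. For the BL label comparison, 279 became 446 with centring, 183 with only the groups compared, 72 without the trend, 174 without the low-set BL arrays and 452 over all probe sets. For the SL label comparison, 763 became 320 with the array set as a block, 150 without the trend and 1296 over all probe sets. SL minus BL went from 915 to 374 without the trend and 1374 over probe sets. Within LRC 512 became 65 without the trend and 319 without the low-set BL arrays, and within non-LRC 283 became 105 with only the groups compared and 44 without the trend. GL minus SL went from 1510 to 713 without the trend and 2368 over probe sets, and GL minus BL from 3106 to 5243 over probe sets. The interaction count of 0 became 5 with the array set as a block, 2 without the trend, 4 with the replicate block and 2 over probe sets. Leaving out each sample gave 131 to 288, 209 to 481, 529 to 985, 182 to 360, 78 to 358, 575 to 1227, 1652 to 3159 and 0 to 6 calls in the same order. The cause was not tested, other than that the probe-set fit tests more features and leaving out a sample leaves fewer. The Ntrk2 label difference in SL reversed to 0.062 with the array set as a block, which is estimated from BL alone. The third Ngfr probe set reversed the label difference in SL to -0.83 and the differences of SL from BL to 0.50 and, within non-LRC, to 0.48, and on it the BL label difference (-0.87) and the difference of SL from BL within LRC (0.53), both of open size, also had the other sign. Ngfr in GL minus SL ranged from -0.81 to 0.22 when single samples were left out, turning positive without SL non-LRC 2 (0.061) and without GL 2. The replicate numbers were not taken as pairing the samples. Deviations of same-numbered BL samples correlated at 0.11, 0.054 and 0.064, each BL sample being most like its own number, and those of SL at -0.019. BL LRC 1 and BL non-LRC 1 also share the lack of Y-linked signal and the low array set. With the replicate block the counts were 362, 906, 959, 602, 387, 1644, 3148 and 4. Of the list genes' calls given in the text this block ended those of Ntf5 (adjusted p = 0.0698) and Sdc3 (0.0617) between GL and BL and of Bex3 (0.0841) between SL and BL.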
